A study of Saccharomyces cerevisiae with 6 samples.

Results

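Wild-type budding yeast, Saccharomyces cerevisiae, was profiled during early exponential growth in rich medium by sequencing of polyadenylated RNA. The 3 WT libraries of a series of 6 libraries were taken, chosen by the genotype in their labels, and they are referred to as cultures 1, 2 and 3. The labels give the strain as S288C and the genotype as WT, and the cells received no treatment. Overnight cultures were diluted to an optical density at 660 nm of 0.3 in YPD, a medium of yeast extract, peptone and glucose, grown at 30 °C and harvested at 0.9, with 15000000 cells collected per sample. RNA was extracted after digestion of the wall with zymolyase, and libraries were made with the Illumina TruSeq Stranded mRNA kit. The other 3 libraries of the series, from a strain with a substitution in actin, were not used here. The labels describe the cultures as biological replicates of each strain and do not say whether they came from separate colonies, so the SDs describe the spread among these 3 libraries. With 1 group there is no comparison between conditions, and all values are descriptions with no test.

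Budding yeast on glucose ferments most of its sugar to ethanol even with oxygen present, and represses the genes for respiration of other carbon sources. A fast-growing cell also directs a large part of its transcription to ribosome production: RNA polymerase II makes the mRNAs of the ribosomal proteins and of the factors that assemble them, RNA polymerase I makes most ribosomal RNA, and RNA polymerase III makes transfer RNA. Selection for poly(A) tails is meant to leave out the products of polymerases I and III, and it also leaves out most mitochondrial transcripts.

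Reads counted in genes numbered 12476645, 16905818 and 10750023 in cultures 1, 2 and 3. Of these, 99.2 ± 0.114% lay in 5988 annotated nuclear protein-coding genes (SD, n = 3). Small nucleolar and spliceosomal RNA genes of the snR series held 0.220 ± 0.00369% and the mitochondrial rows 0.000172%. Levels are given on 2 scales. CPM is a gene's counts per 1000000 reads in genes of that library. TPM divides counts by coding length before scaling to 1000000 over all genes with an annotated length, and levels of different genes are compared on this scale alone. A count of 0 allows a level of up to 0.240, 0.177 and 0.279 CPM in cultures 1, 2 and 3 (3 counts per library, counting error only). 

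Mating-type genes were read first, as a check of what the cells were. All 7 genes specific to a cells were detected: MFA2, encoding the a-factor pheromone, was at 1535, 1193 and 1639 CPM, and STE2, the receptor for alpha factor, was at 699, 768 and 769 CPM in cultures 1, 2 and 3. MF(ALPHA)1, the main gene for alpha factor, was at 0.641, 0.651 and 0.651 CPM, and STE3, the receptor for a factor, was at 3.53, 2.48 and 2.42 CPM. SAG1, the alpha agglutinin, was not near 0, at 93.8, 78.3 and 90.3 CPM. Per coding length, all 7 of the a-cell genes lay above the median of all coding genes, as did 1 of the 5 alpha-cell genes, AFB1, at 67.7 ± 12.9 TPM. SAG1 and MF(ALPHA)2 lay below that median but not near 0, at 45.4 ± 6.64 TPM and 42.8 ± 11.7 TPM. The labels name no auxotrophic marker. URA3, LEU2 and MET17, which encode enzymes of uracil, leucine and sulfur amino acid synthesis, had 0 counts in every culture, while HIS3 was at 160, 159 and 161 CPM and LYS2 at 150, 136 and 162 CPM. HO, the endonuclease of mating-type switching, was at 107, 118 and 110 CPM.

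Almost every coding gene was read in these cells, and most of the reads came from a small part of them. At least 1 CPM in every culture was reached by 5722 of the 5988 coding genes (95.6%), and 5838 (97.5%) had a read in every culture. By mean CPM, 2797 coding genes (46.7%) lay between 10 and 100 CPM and held 14.4% of reads, 2439 (40.7%) lay between 100 and 1000 CPM and held 62.9%, and 103 (1.72%) lay at 1000 CPM or above and held 21.7%. The most abundant 687, 496 and 653 genes held 50% of the reads in cultures 1, 2 and 3, a mean of 612. The single most abundant gene of each culture held 1.36, 1.66 and 1.48% of reads, and the leading 100 genes held 19.5, 25.3 and 20.4%. Reads were more concentrated in culture 2 than in the other two cultures on each of these counts.

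Per coding length, the 5765 coding genes with a mean of at least 1 CPM had a median of 65.5 TPM. The middle 50% lay between 35.3 and 134 TPM. The 95th percentile, 556 TPM, was 56.6-fold above the 5th, 9.82 TPM, a width of 5.82 on the log2 scale. The width was 5.72, 6.16 and 5.77 in cultures 1, 2 and 3, so it was widest in culture 2. The plot of levels shows a single broad peak with a long upper tail that reaches 15153 TPM.

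**Figure D1:**
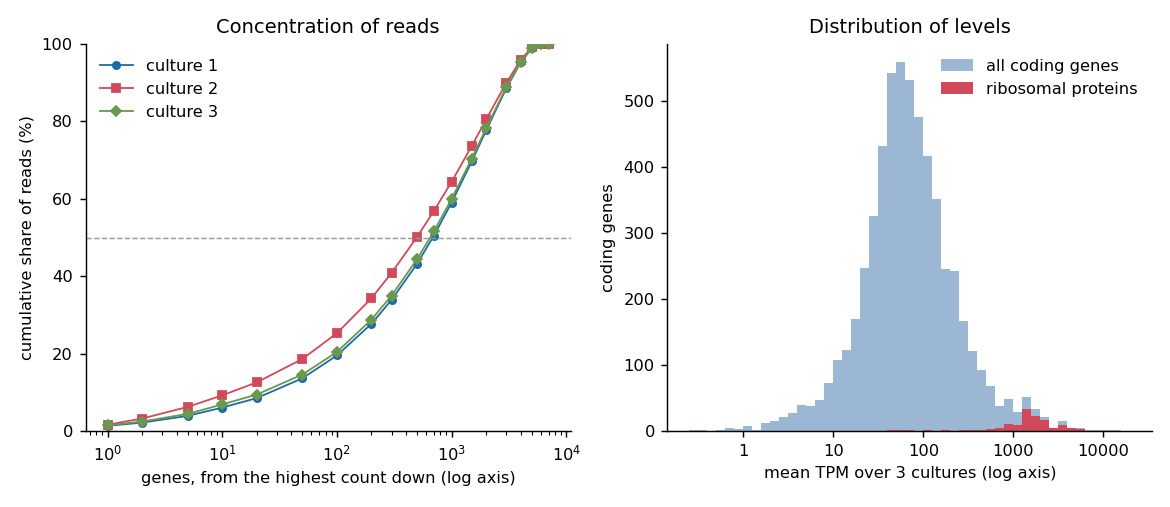
Left, the cumulative share of reads (%) against the number of genes taken from the highest count down (log axis), 1 line per culture, with 50% dashed. Right, a histogram of the mean TPM of coding genes over the 3 cultures (log axis), with the ribosomal proteins in red. Culture 2 crosses the dashed line at 496 genes and the others at 687 and 653, and most ribosomal proteins lie in the upper tail.

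At the top of the table stood enzymes of sugar fermentation. PDC1, the main pyruvate decarboxylase (chromosome XII, 232390 to 234081, minus strand, R64), took the most reads, at 13650, 16583 and 14793 CPM in cultures 1, 2 and 3. TDH3, the main glyceraldehyde-3-phosphate dehydrogenase, followed at 8262, 15819 and 9941 CPM, and FBA1, the aldolase, was at 5993, 11654 and 7225 CPM. Of these, PDC1 differed little among cultures (CV 9.85%), whereas TDH3 and FBA1 were both highest in culture 2 and lowest in culture 1. PMA1, the proton pump of the plasma membrane, was at 6522, 5851 and 6730 CPM and was lowest in culture 2. Per length, CCW12, a small mannoprotein of the cell wall, was highest at 12846, 17715 and 14900 TPM, a mean of 15153 ± 2445 TPM. MFA2, with a coding length of 117 bases, was next at 12637 ± 2597 TPM, and TDH3 followed at 11319 ± 3268 TPM. Coding length leaves out the untranslated parts of a transcript, so the TPM of a gene as short as MFA2 is less certain than those of longer genes. AHP1, a thiol peroxidase, and PDC1 came next, at 9936 ± 884 TPM and 8929 ± 379 TPM. CCW12 was above TDH3 in all 3 cultures, but MFA2, at 13869, 9653 and 14388 TPM, was above CCW12 in culture 1, so the order of these 2 is not fixed.

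The share of reads differed widely among functional classes. The 1438 genes on any of 53 lists held 51.9 ± 3.91% of reads, and 176 of them, the ribosomal proteins with the enzymes of glycolysis and fermentation, held 18.3 ± 4.18% of reads and 29.9% of the summed TPM. They made up 81 of the 100 genes with the highest TPM. The plot of class shares orders the 16 largest classes, with each culture as a point.

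**Figure D2:**
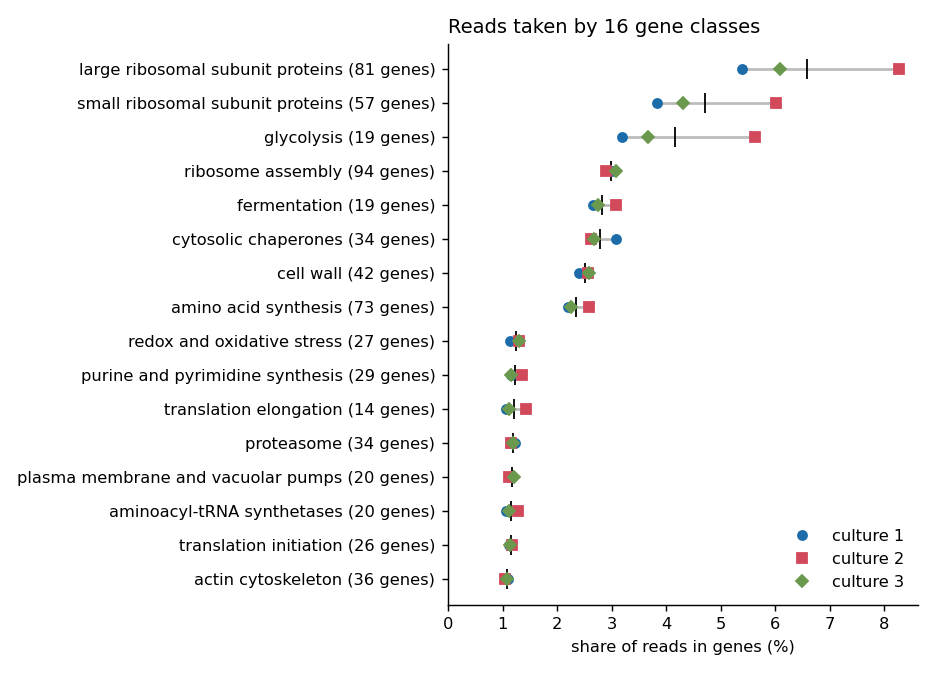
Share of reads in genes (%) held by the 16 classes with the largest shares; points are the cultures, the black tick is the mean of 3 and the grey line joins the lowest and highest culture. Ribosomal proteins of both subunits and glycolysis are spread widest, with culture 2 at the right, whereas the 3 cultures nearly coincide for ribosome assembly and the cell wall.

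Ribosomal protein genes were the largest class. The 138 genes of both subunits held 9.22, 14.3 and 10.4% of reads in cultures 1, 2 and 3, a mean of 11.3 ± 2.66%. Per length they held 20.6, 28.9 and 22.6% of the summed TPM, a mean of 24.0 ± 4.36%. All 138 were detected at 1 CPM or more in every culture, and their median level was 1538 TPM, where that of all 5988 coding genes was 62.1 TPM. Of the 81 large-subunit genes 78 lay above that median, and of the 57 small-subunit genes all 57 did. Within the large subunit, RPP1B, an acidic protein of the stalk that binds translation factors, was at 4760, 5834 and 5247 TPM in cultures 1, 2 and 3. RPL25, which binds ribosomal RNA near the exit of the peptide tunnel, was at 3900, 4783 and 4175 TPM, and RPL3, at the peptidyl transferase centre, was at 3354, 5247 and 3777 TPM. In the small subunit, RPS25A was at 3208, 4323 and 3644 TPM, RPS12 at 3043, 4409 and 3349 TPM, and RPS31, made as a fusion to ubiquitin, at 2698, 4614 and 2892 TPM. All 6 of these genes were highest in culture 2 and lowest in culture 1. RPL41A, which encodes the shortest ribosomal protein, had 3634, 8215 and 4530 TPM, but only 0.310 of its 50-base windows occur once in the genome, so reads that it shares with RPL41B may be missing.

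The other parts of the translation machinery stood above most genes but below the ribosomal proteins. Their medians were 334 TPM for 14 genes of the elongation list, 313 TPM for 26 initiation factor genes and 293 TPM for 20 aminoacyl-tRNA synthetase genes. All 20 synthetases exceeded the median of all coding genes. The elongation list also holds SUP35 and SUP45, the release factors, and STM1, and it counts HYP2 at 0. Over its 13 genes with a mean of at least 1 CPM the median was 356 TPM. EFB1, the exchange factor of eEF1A, was at 2059 ± 345 TPM, and YEF3, the fungal elongation factor eEF3, at 1009 ± 29.4 TPM. The eEF1A genes TEF2 and TEF1 were at 1275 ± 201 TPM and 554 ± 84.5 TPM, but 0.0753 of the windows of each occur once, so the level of eEF1A mRNA is not measured here. PAB1, the poly(A)-binding protein, was at 770 ± 65.1 TPM, and KRS1, the lysyl-tRNA synthetase, at 614 ± 107 TPM. HYP2, which encodes eIF5A, had 0 counts in every culture.

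Ribosome assembly factors were a broad class of moderate levels. Their 94 genes held 2.99 ± 0.0993% of reads, and 88 of them exceeded the median of all coding genes, with a median of 166 TPM. SNU13, a protein of the small nucleolar and spliceosomal particles, was highest at 1101 ± 174 TPM. NOP1, the methyltransferase fibrillarin, was at 811, 783 and 814 TPM in cultures 1, 2 and 3, and NHP2 and NOP10, partners in the particles that make pseudouridine, were at 668 ± 42.9 TPM and 666 ± 47.9 TPM. UTP20, a large component of the early small-subunit precursor, was lowest at 39.4 ± 5.54 TPM. Levels within the class were spread widely, while the share of reads hardly differed among cultures. The 20 subunit genes of RNA polymerases I and III had a median of 125 TPM, close to the 119 TPM of 29 genes of RNA polymerase II and its general factors.

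Glycolysis held 4.16 ± 1.30% of reads in 19 genes and fermentation 2.83 ± 0.225% in another 19. At several steps 1 isoform gave most of the mRNA. Of the glyceraldehyde-3-phosphate dehydrogenases, TDH3 was at 11319 ± 3268 TPM, TDH2 at 2335 ± 656 TPM and TDH1 at 124 ± 45.6 TPM. Of the enolases, ENO2 was at 5208 ± 2059 TPM and ENO1 at 498 ± 116 TPM. PDC1 was at 8929 ± 379 TPM, and its paralogues PDC5 and PDC6 were at 31.2 ± 8.20 TPM and 2.95 ± 1.74 TPM. ENO2 and PDC1 are known as the isoforms of growth on glucose. ADH1, which makes ethanol, was at 5854 ± 1249 TPM, while ADH2, which consumes it when glucose is gone, was at 52.6 ± 6.55 TPM. Of the kinases that start glycolysis, HXK2 was at 619 ± 126 TPM, GLK1 at 532 ± 261 TPM and HXK1 at 157 ± 79.1 TPM. The order of HXK2 and GLK1 is not fixed. In cultures 1, 2 and 3 HXK2 was at 525, 762 and 569 TPM and GLK1 at 750, 243 and 604 TPM, so HXK2 was higher in culture 2 alone. The phosphofructokinase genes were steady by CPM: PFK1 was at 1079, 1060 and 1095 CPM in cultures 1, 2 and 3, a CV of 1.59%, and PFK2 had a CV of 2.80%. Per length they were less even, with PFK1 at 385, 339 and 379 TPM and PFK2 at 326, 276 and 311 TPM. The share of windows that occur once is 0.756 in TDH3, 0.687 in TDH2 and 0.764 in ENO2, so the levels of these 3 may be understated. Among hexose transporters, HXT3 was at 704 ± 120 TPM, HXT1, a low-affinity carrier, at 407 ± 38.9 TPM and HXT2 at 316 ± 31.0 TPM.

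Chaperones, the cell wall and protection from oxidation made up the rest of the leading classes. The 34 cytosolic chaperone genes held 3.07, 2.62 and 2.68% of reads in cultures 1, 2 and 3. EGD2 and EGD1, the subunits of the complex that meets nascent chains, were at 3593 ± 21.4 TPM and 1897 ± 179 TPM, and HSC82, the constitutive Hsp90, at 1838 ± 191 TPM. The 42 wall genes held 2.52 ± 0.0936%, led by CCW12 and CWP2, another mannoprotein, at 3951 ± 417 TPM. In the redox list of 27 genes, 3 stood among the leading 100: AHP1, TSA1, the main peroxiredoxin, at 3750 ± 389 TPM, and SOD1, the copper and zinc superoxide dismutase, at 1871 ± 125 TPM. CTT1, the cytosolic catalase, lay at the other end of that list at 19.8 ± 6.03 TPM. ACT1, the actin gene, was at 1526, 1883 and 1599 CPM in cultures 1, 2 and 3, or 1489 ± 80.8 TPM, and the 36 genes of the actin cytoskeleton held 1.08% of reads. Synthesis of amino acids held 2.35 ± 0.213%, with ILV5, a step of valine and isoleucine synthesis that also packages mitochondrial DNA, at 1446 ± 177 TPM. The core histone gene HTB1 was at 1188 ± 58.7 TPM, and the 10 histone genes ranged from 161 to 1415 TPM. In yeast, unlike most of those in animals, histone mRNAs carry poly(A) tails.

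Genes for other carbon sources and life stages were low. The 35 glucose-repressed genes held 0.196% of reads, with a median of 16.2 TPM, and 3 of them lay above the median of all coding genes. ICL1, of the glyoxylate cycle, was at 114 ± 23.3 TPM. Of the 7 galactose genes, GAL80, the repressor, was at 74.7 ± 5.23 TPM and alone above that median, while GAL1, the kinase, was at 18.4 ± 4.42 TPM and GAL7 at 6.26 ± 1.24 TPM. A non-coding RNA gene that is antisense to GAL10 lies on the strand of GAL1 and covers all of it in the annotation. It has no row of its own in the table, so its reads cannot be told apart from those of GAL1. The 30 genes of meiosis and sporulation had a median of 14.2 TPM and the 20 autophagy genes 21.3 TPM, with 3 and 1 above the median of all coding genes. The genes of all 8 proteins encoded in mitochondria were under 1 CPM. Selection for poly(A) tails leaves out most mitochondrial transcripts, so their levels are not measured here. The 38 nuclear genes of oxidative phosphorylation were not low: their median of 150 TPM lay above the median of all coding genes. Of 35 genes in repeated families near the chromosome ends, 18 reached 1 CPM in every culture.

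No read was counted in any culture for 116 coding genes, and most of these are repeated in the genome or overlapped. Of these, 96 have under 50% of 50-base windows that occur once in the genome, and 62 are overlapped by another annotated gene for at least 50% of their length. The 9 genes with neither property were LEU2, URA3, MET17, HYP2, RGI1, DID2, APS1, YCR087C-A and YPR159C-A. Beside 7 of them, LEU2 and MET17 apart, the table holds a row under an adjacent systematic name on the other strand that the annotation used here lacks. Reads that overlap 2 rows may be set aside as ambiguous, a class that held 7.68 ± 0.392% of reads. In all, 956 of the 5988 coding genes (16%) stand beside such a row, with a median of 50.6 TPM against 64.3 TPM for the others. Among ribosomal proteins 26 of 138 do, with 901 against 1577 TPM. The rows were placed by their names alone, and whether they overlap these genes was not tested, so low levels of genes beside them are uncertain.

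Both copies of duplicated ribosomal protein genes were used, often unequally. In yeast most ribosomal proteins are encoded by a pair of paralogues named A and B. In 59 pairs the median difference between copies was 1.57-fold per length, 17 pairs differed by more than 2-fold, and the same copy was higher in every culture in 53. RPL15, a protein of the large subunit, was the most unequal: on the log2 scale copy A exceeded copy B by 4.35, 5.34 and 4.77 in cultures 1, 2 and 3, a mean of 28.2-fold. RPL15A was at 5045 ± 1517 TPM and RPL15B at 174 ± 11.6 TPM. In RPS9, a small-subunit protein tied to decoding accuracy, copy B was 7.91-fold higher, at 3313 ± 699 TPM against 414 ± 37.5 TPM. In RPS28 and RPS14, copy A was higher by 5.05-fold and 4.51-fold. For these 4 pairs neither copy stands beside an unannotated row. For others it does: RPL33 (20.4-fold, B higher), RPL36 (17.8-fold, A), RPL22 (17.2-fold, B) and RPL43 (14.9-fold, B) were also far apart, and in 6 of the 8 most unequal pairs the lower copy stands beside such a row. In the 36 pairs with no such row and at least 50% of windows occurring once in each copy, 8 differed by more than 2-fold, the median was 1.43-fold, copy A was higher in 20, and the same copy was higher in every culture in 33.

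**Figure D3:**
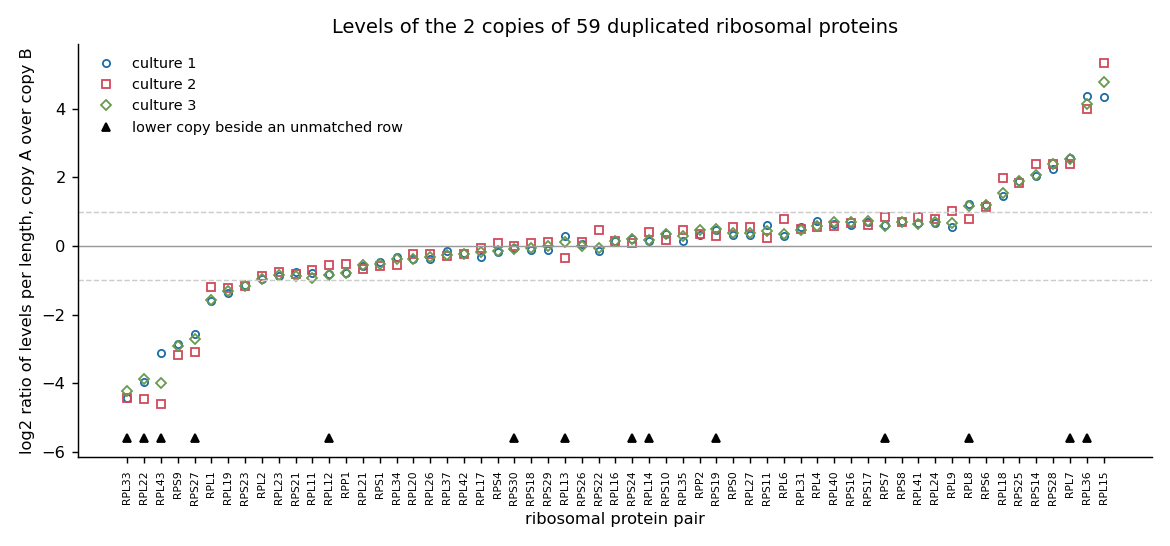
Log2 ratio of TPM of copy A over copy B for 59 pairs, ordered by their mean; points are the cultures, dashed lines mark a 2-fold difference and triangles mark pairs whose lower copy stands beside a row that the annotation lacks. Most pairs lie between the dashed lines, 17 lie outside by their mean, and the points of the 3 cultures lie close together in most pairs.

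Abundant mRNAs shared features of their coding sequences. Coding genes at 1 CPM or more were sorted by mean TPM into 10 bins of equal size. The median share of codons favoured by ribosomal protein genes was 36.7% in the lowest bin and 57.1% in the highest, or 52.4% with ribosomal proteins left out of it. Over genes, the share and the level had a Spearman correlation of 0.501 (n = 5765), and 0.466 without ribosomal proteins (n = 5627). These are correlations over genes of the same libraries, which are not independent replicates. The favoured codons were defined on ribosomal proteins, so the values without them carry the description. In the 100 non-ribosomal genes with the highest TPM, 83.0% of glycine codons were GGT, where all coding genes had 45.5% and the lowest 1000 genes 39.9%. For arginine the share of AGA was 74.7, 47.4 and 43.2% in the same order, and for leucine that of TTG was 60.4, 27.9 and 24.2%. 

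The genes of the highest bin were also shorter and more often spliced. The median coding length was 726 bases in the highest bin, 936 without ribosomal proteins. It was 1101 bases in the lowest bin and 1490 in the fourth, the longest, so length rose and then fell with level. Introns were annotated in 115 of 577 genes of the highest bin (19.9%), and 90 of the 138 ribosomal protein genes (65.2%) have one. Without ribosomal proteins the share in that bin was 7.14%. The lowest bin held 7.63%, and bins 2 to 9 held between 0.867 and 5.03%.

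**Figure D4:**
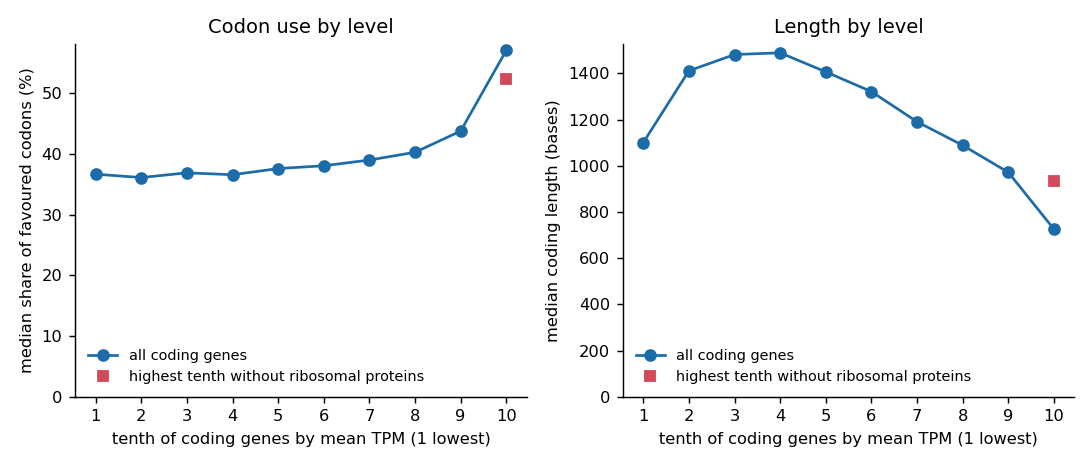
Median share of codons favoured by ribosomal protein genes (%, left) and median coding length (bases, right) in 10 bins of coding genes by mean TPM, from lowest to highest; the red square is the highest bin without ribosomal proteins. The codon share is nearly level in the lower bins and ends at 57.1%, and length goes from 1101 bases in the lowest bin to 1490 in the fourth and 726 in the highest.

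Promoters of the leading classes carried different short motifs. The 300 bases before each start codon were searched on both strands for 6 motifs. Of 5987 promoters, 48.2% held TATAAA, the TATA box, and 45.5% held CTTCC, the core of sites for the glycolytic activator Gcr1. GATGAG and AAAATTTT, forms of the PAC and RRPE elements known from ribosome assembly genes, were in 19.1% and 9.42%, CCCCT, the stress response element, in 22.2%, and ACCCATACA, a common core of Rap1 sites, in 0.551%. CTTCC was in 12 of 19 glycolytic promoters (63.2%) and in 9 of 19 fermentation promoters (47.4%), the latter close to the share of all promoters. Its share in other lists ran from 0% for a-mating-type genes to 65.5% (19 of 29) for the tricarboxylic acid and glyoxylate cycles. It was 54.3% for ribosomal proteins, so a high share was not particular to glycolysis. TATAAA was in 15 of 19 glycolytic promoters (78.9%), 84.2% of fermentation promoters and 28.3% of ribosomal protein promoters. GATGAG was in 85 of 94 ribosome assembly promoters (90.4%) and AAAATTTT in 79 (84.0%). GATGAG was in 17 of 20 promoters of RNA polymerases I and III, and AAAATTTT in 60% of those of tRNA synthetases. CCCCT was in 20 of 31 promoters of general stress genes (64.5%), and ACCCATACA in 7 of 138 of ribosomal proteins (5.07%). A match describes letters in this window and is not a binding site.

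The stretches below, from 300 to 101 bases before the start codon in the R64 reference, show 1 gene from each of 5 classes, chosen because they hold motifs named above. They are written 5′ to 3′ on the gene's own strand. Capitals mark TATAAA or CTTCC in the first 2, ACCCATACA in the third, GATGAG or AAAATTTT in the fourth and CCCCT or TATAAA in the fifth, on either strand, and other letters are in lower case whether or not they match another motif.
ENO2, enolase, chrVIII:451027-451226 (+): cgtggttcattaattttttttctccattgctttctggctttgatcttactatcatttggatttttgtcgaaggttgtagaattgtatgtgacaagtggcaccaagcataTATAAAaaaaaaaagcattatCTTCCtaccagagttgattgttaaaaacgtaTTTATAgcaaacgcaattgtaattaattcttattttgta
ADH1, alcohol dehydrogenase, chrXV:160695-160894 (-): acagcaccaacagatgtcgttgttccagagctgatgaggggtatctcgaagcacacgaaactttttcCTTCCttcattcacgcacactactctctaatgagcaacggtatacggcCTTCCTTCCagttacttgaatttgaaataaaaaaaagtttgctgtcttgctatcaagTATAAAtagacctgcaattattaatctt
RPP1B, ribosomal stalk protein, chrIV:229606-229805 (+): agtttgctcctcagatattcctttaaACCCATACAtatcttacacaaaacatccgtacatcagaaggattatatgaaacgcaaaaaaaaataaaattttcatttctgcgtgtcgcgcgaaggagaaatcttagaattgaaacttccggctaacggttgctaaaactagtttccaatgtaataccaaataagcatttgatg
SNU13, ribosome assembly, chrV:101643-101842 (+): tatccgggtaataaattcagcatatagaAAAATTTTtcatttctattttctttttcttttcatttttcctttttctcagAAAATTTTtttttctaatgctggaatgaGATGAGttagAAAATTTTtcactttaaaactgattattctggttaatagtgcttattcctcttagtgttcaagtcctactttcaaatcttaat
HOR7, a gene induced by osmotic stress, chrXIII:774452-774651 (+): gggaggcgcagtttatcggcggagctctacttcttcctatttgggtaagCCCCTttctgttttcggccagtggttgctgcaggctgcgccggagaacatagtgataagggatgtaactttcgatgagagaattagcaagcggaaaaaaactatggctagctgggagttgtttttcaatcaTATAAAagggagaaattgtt
In ENO2 the motifs start 191, 170 and 139 bases before the start codon. SNU13 holds GATGAG at 193 bases with AAAATTTT on each side of it, at 221 and 183, and a further copy at 272. In HOR7, CCCCT lies at 251 bases and TATAAA at 120.

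The 3 cultures were alike in overall pattern, and culture 2 stood apart from the others. Over 5439 rows with a mean of at least 10 CPM, log2 CPM of cultures 1 and 3 had a Pearson correlation of 0.993, cultures 2 and 3 of 0.976 and cultures 1 and 2 of 0.957, across rows that are not independent. The pairs differed by more than 2-fold in 4, 57 and 198 of these rows. The chi-square of the counts per degree of freedom was 14.5, 78.5 and 152 in the same order, so no pair agreed within counting noise as a library deposited a second time would. Among 2556 rows at 100 CPM or above, culture 2 was the culture farthest from the mean in 2020, culture 1 in 337 and culture 3 in 199. The median CV in these rows was 12.7%, where counting alone gives 1.99%. Over coding genes at 10 CPM or above it was 12.2%, and 5.10% without culture 2. The common biological CV estimated by edgeR was 17.1%, and 7.78% without culture 2. Culture 2 was also the deepest library.

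Among genes at 100 CPM or above, 989 had a CV under 10% among cultures and 14 a CV over 50%. Of these 14, SSA4, HSP42 and SSE2 are on the list of cytosolic chaperones, HSP78 on that of ER and mitochondrial chaperones, and PHO12 and VTC3 on that of phosphate genes. YAK1, GPD1, SMK1 and RPL41A are each on a different list, ZPR1, MPC3, YHB1 and VIR1 are on none, and 0 are on the list of general stress genes. SSA4, an inducible Hsp70, was at 1582, 277 and 805 CPM in cultures 1, 2 and 3, a CV of 73.9%. HSP42, a small heat shock protein, was at 1719, 361 and 1118 CPM, and ZPR1, which assists folding of eEF1A, at 2718, 738 and 1604 CPM. GPD1, the glycerol-3-phosphate dehydrogenase of the osmotic response, was at 2981, 726 and 2323 CPM, and YAK1, a kinase that restrains growth, at 498, 141 and 327 CPM. In SSA4, HSP42, ZPR1, GPD1 and YAK1 culture 1 was highest, culture 3 between and culture 2 lowest. The opposite order held for YHB1, a flavohemoglobin that detoxifies nitric oxide, at 179, 673 and 280 CPM, and for VTC3, of the polyphosphate synthase, at 171, 547 and 311 CPM. PHO12, an acid phosphatase, was at 44.7, 317 and 97.6 CPM, but 0.128 of its windows occur once, so reads that it shares with close copies may be missing. At the other end, EFM5, a methyltransferase of eEF1A, was at 124.3, 123.7 and 123.3 CPM, a CV of 0.429%, and HIS3 had a CV of 0.622%. Both were taken from the low end of the CVs of 2556 rows and rest on library totals. Counting alone gives 2.20% for HIS3, more than its CV. Per length HIS3 was at 255, 227 and 249 TPM in cultures 1, 2 and 3.

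By class, culture 2 was higher in ribosomal protein genes and lower in general stress genes under all 3 scalings. The values are medians over members of the log2 ratio of culture 2 to the mean of the other two cultures, beside a median of -0.17 over 5339 coding genes, a shift that TMM scaling brings to 0.02. The median was 0.52 for the 138 ribosomal proteins, 133 of which were highest in culture 2, and 0.71 with TMM. With library totals it was 0.38 for the elongation list (11 of 13 highest) and 0.52 for histones (9 of 10). It was 0.35 for glycolysis, where 11 of 19 were highest and 8 lowest. GPM1, the phosphoglycerate mutase, was at 790, 1832 and 1029 CPM in cultures 1, 2 and 3, while GLK1, the glucokinase, was at 1066, 385 and 884 CPM and HXK1 at 290, 102 and 276 CPM. Glycolysis therefore did not move as a block.

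The median of 30 general stress genes was -0.77, and all 30 were lowest in culture 2, or 24 with TMM scaling and a median of -0.57. Stationary phase genes had -0.73 with library totals (13 of 13 lowest) and -0.54 with TMM (11 of 13). Glucose-repressed genes had -0.47 (27 of 29) and -0.28 (22 of 29), and hexose transporters -0.42 (12 of 14) and -0.23 (11 of 14). HOR7 was at 329, 162 and 324 CPM. PHO84, the high-affinity phosphate carrier, lay the other way at 1505, 3157 and 2673 CPM, though an annotated antisense RNA gene with no row in the table covers all of PHO84. Of 53 lists, 36 had a median on the same side of 0 with library totals, TMM and DESeq2 size factors, and no direction is given for the other 17. In this count ribosomal proteins enter by subunit and also together. The list of mitochondrially encoded proteins, all under 10 CPM, is left out. The median of all coding genes itself changed side, from -0.17 with library totals to 0.02 with TMM. Among the 36, ER and mitochondrial chaperones lay at -0.0009 and the tubulin list at -0.0013 with TMM. The side of 0 alone thus does not set a list apart from all coding genes. Over all coding genes at 10 CPM or more, 1537 of 5339 were highest and 3326 lowest in culture 2 by library totals. The same counts over all coding genes were not made with TMM. The TMM counts per list therefore have no such share beside them.

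**Figure D5:**
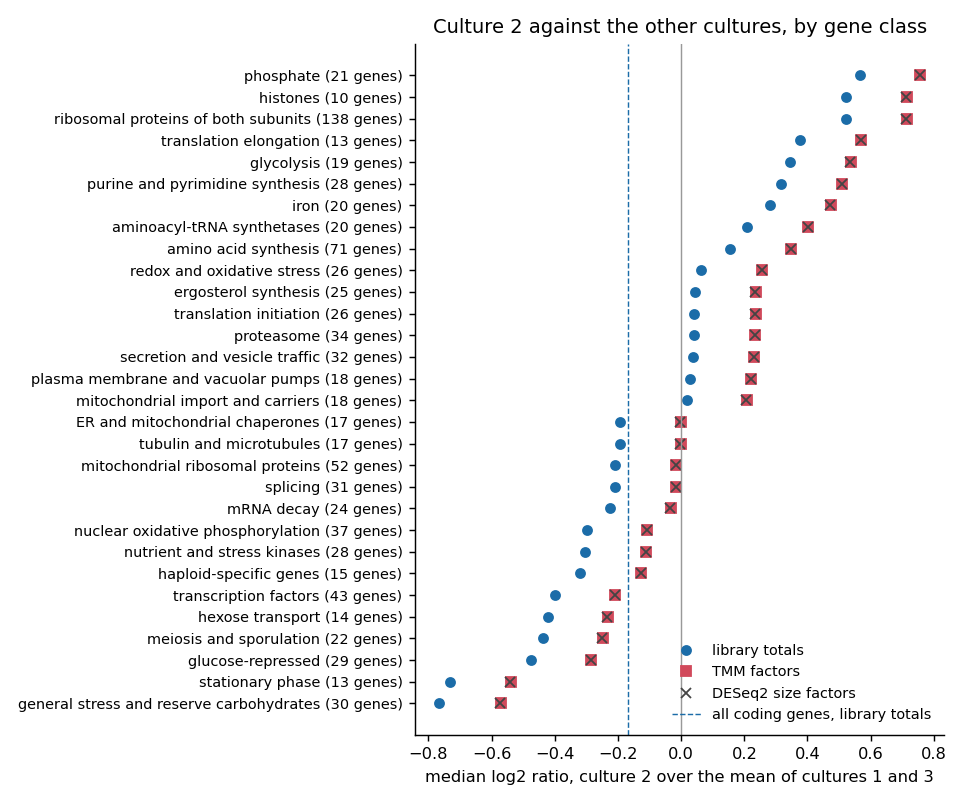
Median over each list's genes of the log2 ratio of culture 2 to the mean of cultures 1 and 3, under 3 scalings, for lists of at least 10 genes whose median stays on the same side of 0; the dashed line is the median of all coding genes with library totals. Ribosomal proteins, histones and phosphate genes lie at the right, and stress and stationary phase genes at the left. The phosphate list was split: by library totals 11 of its 21 genes were highest and 8 lowest in culture 2.

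Genes at the ends of the ratio of culture 2 to the others also differed in length and promoter letters. Sorted by this ratio into 10 bins of equal size, the lowest bin (median log2 ratio -0.75) had CCCCT in 32.8% of promoters, a median coding length of 1391 bases and 0 ribosomal proteins. The highest bin (median 0.50) had CCCCT in 18.0%, a median coding length of 737 bases and 116 ribosomal proteins. Length was not ordered across the bins, since bins 2 to 5 were longer than the lowest, with a median of 1797 bases in bin 3. From the lowest to the highest bin the share of promoters with AAAATTTT was 4.49 and 15.2%, with GATGAG 13.7 and 20.04%, and with TATAAA 55.8 and 44.2%. Over 4 groups of genes by coding length, the median log2 ratio of culture 2 was 0.02 in the shortest (78 to 786 bases), -0.12 and -0.17 in the next, and -0.30 in the longest (1953 to 14733 bases). For culture 1, set against the other two cultures in the same way, it was -0.03, 0.06, 0.09 and 0.15 over the same groups. RNAs that are made by RNA polymerase III and carry no poly(A) tail in mature form also differed among the cultures. The tRNA rows together held 555, 195 and 338 CPM in cultures 1, 2 and 3, and SCR1, the RNA of the signal recognition particle, was at 1681, 880 and 1140 CPM. RPR1, the RNA of RNase P, was at 502, 267 and 332 CPM. All of these were lowest in culture 2 and highest in culture 1, and cultures 1 and 3 also lay apart. The snR rows, at 2238, 2177 and 2171 CPM, differed little. The part of depth, coding length and the RNAs of polymerase III in the difference of culture 2 was not tested.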

How the data were processed

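The authors deposited raw counts per gene in whole numbers, with no scaling, made with TopHat and HTSeq on the R64 build, per the submitters' processing notes, which also name DESeq and give no versions. The strand setting is not given in the sources used here. Of 7131 rows, 5 summary rows name no gene and were left out. In the WT libraries they held 3.60 ± 0.399% (no feature) and 7.68 ± 0.392% (ambiguous) of uniquely placed reads, and 54.5 ± 2.11% of the table's total (placed at several loci). No column of values was left without a library (0 columns), and only the 3 WT columns were used.

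CPM was computed from library totals and TPM from coding length in the R64 annotation, to which 6048 of 7126 gene rows matched by locus tag. The share of each coding sequence's 50-base windows occurring once in the genome was recorded. The calculations used Python 3.11.15, numpy 2.4.6, pandas 2.3.3, scipy 1.17.1, matplotlib 3.10.9, R 4.3.3, edgeR 4.0.16 (biological CV and TMM) and DESeq2 1.42.0 (size factors). The estimate of biological CV was tested on simulated data. The CV is the SD over the mean of CPM in the 3 cultures.

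The members and the 53 gene lists were chosen with earlier results of these data known. Named genes were those with the 20 highest mean CPM or TPM, up to 5 highest and 2 lowest members per list, the 12 largest and 8 smallest CVs and the 12 largest ratios of a culture to the others each way at 100 CPM or above, the most unequal ribosomal protein pairs and all members of short lists. Other genes were named after their values were seen. Alternatives were other scalings and length corrections, other filters, and leaving out each culture. The rows beside genes, the ribosomal protein pairs free of them and the scalings of culture 2 were chosen after seeing the data.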

Additional observations from a re-analysis of the deposited data

How the results depend on the processing

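The class shares depend on whether reads or reads per length are counted. Per kilobase, and per kilobase with correction for windows that occur once, ribosomal proteins held 24.0 and 29.1%, amino acid synthesis 1.72 and 1.60%, the cell wall 3.39 and 3.12%, chaperones 2.14 and 2.27%, fermentation 2.08 and 1.995% and ribosome assembly 2.12 and 1.93%. Ribosome assembly thus lay above the cell wall by reads and below it per kilobase. Per kilobase, 327 genes held 50% of the total. The width of levels was 6.5 on CPM and 6.12 over all genes with a read. Leaving out each culture gave a median CV of 5.10 to 15.2% and a biological CV of 7.78 to 22.6%, lowest without culture 2. Among ribosomal protein pairs free of neighbouring rows, 8 differed by more than 2-fold. Among the shares of the smaller classes, 86 alternative values moved beyond 1 SD and 52 did not. For culture 2, 17 of the 53 lists compared between scalings changed side of 0. The causes of these shifts were not tested. The counts leave out reads at several loci, so repeated genes are limited by uniqueness rather than depth. No paired analysis was possible because a single group was described.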

Other observations

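Classes of housekeeping genes that took a smaller share of reads lay between the ribosomal proteins and the typical coding gene. All 34 proteasome genes exceeded the median of all coding genes, with a median of 300.2 TPM. PRE2, a catalytic subunit, was at 872, 856 and 938 TPM in cultures 1, 2 and 3, and PRE4 was less even at 641, 294 and 519 TPM. Of the 25 ergosterol genes 23 exceeded that median, with a median of 235 TPM. ERG6, a methyltransferase late in the pathway, was at 834 ± 42.3 TPM, while ERG1, the oxygen-dependent squalene epoxidase, was at 593, 288 and 470 TPM and lowest in culture 2. In secretion and vesicle traffic 31 of 32 genes were above the median of all coding genes, and YPT1, the Rab GTPase of early transport, was at 837, 827 and 849 TPM, nearly equal in the 3 cultures.

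Other classes lay near the typical gene. DNA replication (41 genes), splicing (32) and the methionine and sulfate list (27) had medians of 54.3, 52.9 and 57.7 TPM, below the 62.1 TPM of all coding genes. Within the last of these the spread was wide. CYS4 and CYS3, the enzymes that make cysteine from homocysteine, were at 985 ± 17.2 TPM and 800 ± 24.2 TPM. The lowest of the 25 genes with a mean of at least 1 CPM was at 15.5 TPM. MET17 had no read, and the reason for this was not tested. The tubulin genes TUB2, TUB1 and TUB3 were at 415 ± 31.6 TPM, 314 ± 26.7 TPM and 307 ± 44.6 TPM, well below ACT1 at 1489 ± 80.8 TPM. Genes of the mitochondrial ribosome had a median of 98.6 TPM over 54 genes.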
